A study of Caenorhabditis elegans with 2 samples.

Results

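Homeobox genes outside the Hox cluster were followed through a map of BLMP-1 binding in Caenorhabditis elegans larvae. The set held 73 of the 19973 nuclear protein-coding genes of the Ensembl WBcel235 annotation. It was taken by name: 61 genes called ceh- plus a number, without ceh-13 and ceh-16, and 12 genes listed singly, which were lim-4, lim-6, lim-7, unc-4, unc-30, unc-42, unc-86, mec-3, ttx-1, ttx-3, vab-7 and pal-1. Chromatin immunoprecipitation and sequencing was done on whole hermaphrodites at the L2 stage. They were of strain OP109, with the genotype unc-119(ed3) III; wgIs109, and stably express BLMP-1 with GFP-FLAG at its C-terminus. The DNA was sheared by sonication, and the antibody field of the labels reads blmp-1. The only group was 2 biological replicates, numbered 2 and 3 in the labels, so no genotype, stage or treatment could be compared, and no test between conditions was possible. The sources used here do not say whether the strain kept its own blmp-1 gene active.

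BLMP-1 is the worm counterpart of the mammalian zinc finger protein PRDM1, a transcription factor that acts in the epidermis and in developmental timing. Homeobox genes encode transcription factors that bind DNA through a homeodomain, and outside the Hox cluster many of them fix the identity of single neuron classes, while others act in the pharynx, muscle, gonad or epidermis. The LIM, POU, sine oculis, CUT, paired-like and PBC classes carry particular partner domains or a variant homeodomain. Chromatin from whole animals mixes all of these tissues, so a summit does not say in which cells the protein was bound, and binding in a small number of cells cannot be told apart from weak binding in many.

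The deposited list thresholded by IDR, a measure of reproducibility between replicates, held 3060 peaks, of which 3031 were nuclear. Each peak has a summit, the position of highest signal, and a signal that is the authors' own value, on a scale that no source used here states. Nuclear signals ran from 27.1 to 858 with a median of 44.3. The relaxed lists, which hold peaks together with background, had 19553 peaks for replicate 2, 25142 for replicate 3 and 30000 for the pooled replicates. The lists give no read totals, so depth is unknown, and signals were compared only within a list.

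Promoter windows of these homeobox genes seldom held a summit. Of the 73 genes, 2 had one, ceh-20 and ceh-38 (2.74%, 95% Wilson interval 0.755 to 9.45), against a background of 8.85% of all nuclear protein-coding genes. The interval covers the counting of genes only, and the background share lies inside it. A promoter window covered 1000 bp before and 200 bp after each annotated transcript start. Merged over starts its median length was 1201 bp per gene, the same as over all genes, though equal medians do not show equal totals. All merged promoter windows covered 117.7 kb for the homeobox genes, with 1.70 summits per 100 kb. Those of all genes covered 26317.2 kb, with 5.76 per 100 kb, and sequence shared by genes was counted once. The value of 1.70 rests on 2 summits. With 500 bp upstream the count was 1, since the ceh-20 summit was lost, against 6.87% of all genes. With 2000 bp it was 4 against 12.1%, with ceh-5 and ceh-21 added.

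The summit of ceh-20 lay 801 bp upstream of its only annotated start on chromosome III (peak 6978915 to 6979250, summit 6979083). ceh-20 encodes a PBC-class protein related to mammalian Pbx and fly Extradenticle, a DNA-binding partner of Hox proteins. Its signal was 54.5 in the thresholded list, rank 1068 of 3031, and the peak at the same place had a signal of 15.9 in the replicate 2 list and 32.8 in the replicate 3 list. Both replicates placed it among their 3060 strongest peaks. The gene's window of 10 kb upstream also held a stronger summit (6972096, signal 89.2), which lay 157 bp from the start of rfc-4, a replication factor C subunit gene, and in the promoter window of eef-1A.1, a translation elongation factor gene.

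The ceh-38 summit lay inside the gene, 97 bp downstream of its 5' end and 4 bp from one of its 11 annotated starts (chromosome II, peak 6951455 to 6951790, summit 6951623). ceh-38 encodes a CUT-class protein of the ONECUT family. The place is an exon outside the coding sequence, and it also falls in the promoter window of the neighbouring gene malt-1, so the list cannot assign it to 1 of them. The signal was 52.3, rank 1147, with 20.7 in the replicate 2 list and 33.3 in the replicate 3 list. Among the CUT-class genes of the set, ceh-38 was 1 of 6 with a promoter summit. Among the PBC-class genes of the set, ceh-20 was 1 of 3. Within the set, the LIM, POU, sine oculis, paired-like and NK-like classes had 0 promoter summits in 6, 3, 3, 12 and 20 genes. The last class counts Distal-less, caudal and even-skipped types too. The 20 genes with no class assigned had 0 as well. The share over all genes was 8.85%, and with so few genes per class these counts do not set the classes apart.

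Weaker promoter peaks were found at more of these genes. The pooled relaxed list put a peak in the promoter window of 26 of the 73 genes (35.6%), against 40.8% of all genes. For 24 of them it was below the threshold, with signals from 2.60 to 16.4 and a median of 5.75, against a lowest thresholded signal of 27.1. The next below ceh-20 and ceh-38 were ceh-79 (16.4), ceh-99 (16.1), ceh-27 (14.04), ceh-100 (14) and ceh-88 (13.5). They were followed by ceh-93 (11.0), ceh-74 (10.9), ceh-84 (8.19), ceh-12 (7.90) and ceh-37 (7.02). Of these, ceh-27 is an NK-class gene, ceh-12 the relative of mammalian HB9 and ceh-37 an Otx-type gene, while for the others no role is stated here.

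Relaxed promoter peaks in the lists of both replicates were found for 9 of the 73 genes (12.3%), against 24.1% of all genes. Besides ceh-20 and ceh-38 these were ceh-27, ceh-37, ceh-79, ceh-88, ceh-99, ceh-100 and lim-4. A gene's peaks in the replicate lists were not required to lie at the same place, and the relaxed lists also hold background. The lim-4 peak, for example, had rank 19374 of 19523 in replicate 2. The strongest peak in the ceh-79 promoter window had rank 1951 of 19523 nuclear peaks in replicate 2 (signal 15.7). In replicate 3 the strongest had rank 22609 of 25112 (signal 2.41), and whether it lay at the same place was not checked. With the 3060 strongest peaks of replicate 2 alone ceh-79 therefore joined the genes with a promoter summit, and the count was 3. The promoters of 46 genes (63.01%) had no peak in any of the 3 relaxed lists, against 49.5% of all genes.

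**Figure D1:**
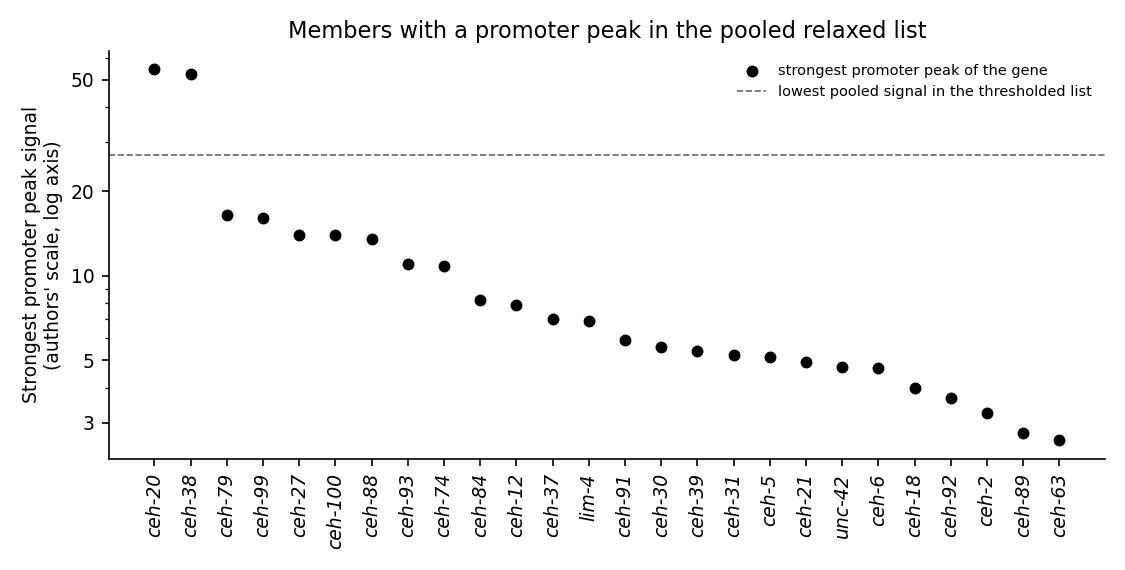
Signal of the strongest promoter peak in the pooled relaxed list (vertical axis, log scale, authors' units) for the 26 homeobox genes that had one (horizontal axis), with the lowest signal of the thresholded list as a dashed line at 27.1. ceh-20 at 54.5 and ceh-38 at 52.3 lie above the line, and the next gene, ceh-79, lies below it at 16.4.

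The share at promoters was below that of all genes at each list length counted. Among the 6120 strongest peaks of the pooled list 4 of the homeobox genes had a promoter summit (5.48% against 16.3% of all genes), with ceh-79 and ceh-99 added. Among the 12240 strongest it was 11 genes (15.1% against 25.5%), and among the 500 strongest 0 against 1.22%. These lists are nested, so they are not independent of each other. In a window from 10 kb upstream to the gene's end the shares were 12.3% and 15.3% for the stronger 50% of the thresholded number, 32.9% and 42.6% for the 6120 strongest peaks and 54.8% and 58.3% for the 12240 strongest.

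**Figure D2:**
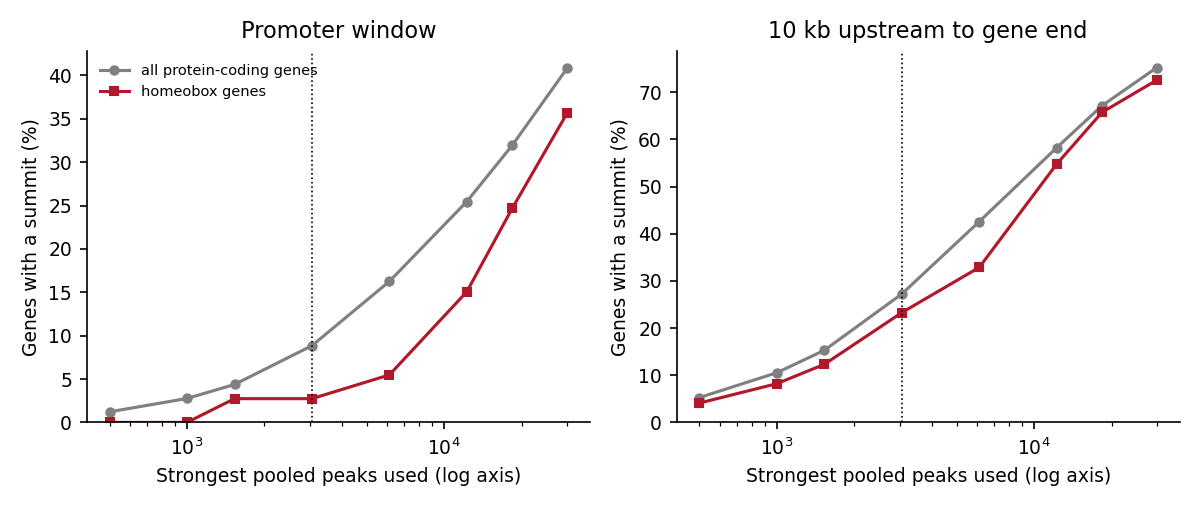
Share of genes with a summit (vertical axis, percent) against the number of strongest pooled peaks used (horizontal axis, log scale), in promoter windows on the left and in the wide window with 10 kb of upstream sequence on the right. The dotted line marks the 3060 peaks of the thresholded list, where the homeobox genes stand at 2.74% and 23.3% and all genes at 8.85% and 27.2%.

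In a wide window, from 10 kb upstream to the end of the gene, 17 of the 73 genes had a summit (23.3%, 95% Wilson interval 15.1 to 34.2), against 27.2% of all genes. The background share lies inside this interval. With 5 kb upstream in place of 10 kb the count was 8 genes (11.0%), against 19.2% of all genes. The homeobox genes were longer, with a median of 3052 bp against 2027 bp, and had a longer gap to the next upstream protein-coding gene, with a median of 2373 bp against 936 bp. Per length the windows held 2.28 summits per 100 kb of merged sequence, against 3.05 for all genes, a ratio of 0.749. When each window stopped at the body of the neighbouring gene, an alternative added after the data were seen, 7 genes had a summit (9.59% against 13.6%) and the ratio was 0.490. Stopping cut the merged windows of the homeobox genes from 965.0 to 528.1 kb, with 1.515 summits per 100 kb. Those of all genes still covered 94347.9 of 97312.2 kb, with 3.089 per 100 kb. The ratio of 0.490 therefore sets shortened windows against nearly the same sequence as before. The median distance from a gene's 5' end to the nearest summit was 16734 bp, against 16539 bp for all genes, and 43.8% of the genes had none within 20 kb, against 44.3% of all genes.

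The 17 genes shared 22 summits, since 1 summit lay in the windows of both ceh-21 and ceh-41. Of the 22, 5 had a homeobox gene as the nearest start, at ceh-5, ceh-18, ceh-20, ceh-38 and ceh-86, and 17 lay nearer to the start of another gene. In all 11 summits lay in the promoter window of another gene only, 2 in that of a homeobox gene and 9 in none. Counting every thresholded summit at any distance, 6 of the 73 genes were the nearest start to at least 1 (8.22%), against 11.3% of all genes, and lim-4 was among them beside the 5 just named. The median signal of the 22 summits was 50.8, from 27.2 to 115.9, and 12 of them were above the median of all nuclear summits. Between genes lay 15 of them (68.2%), against 67.2% of all nuclear summits.

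**Figure D3:**
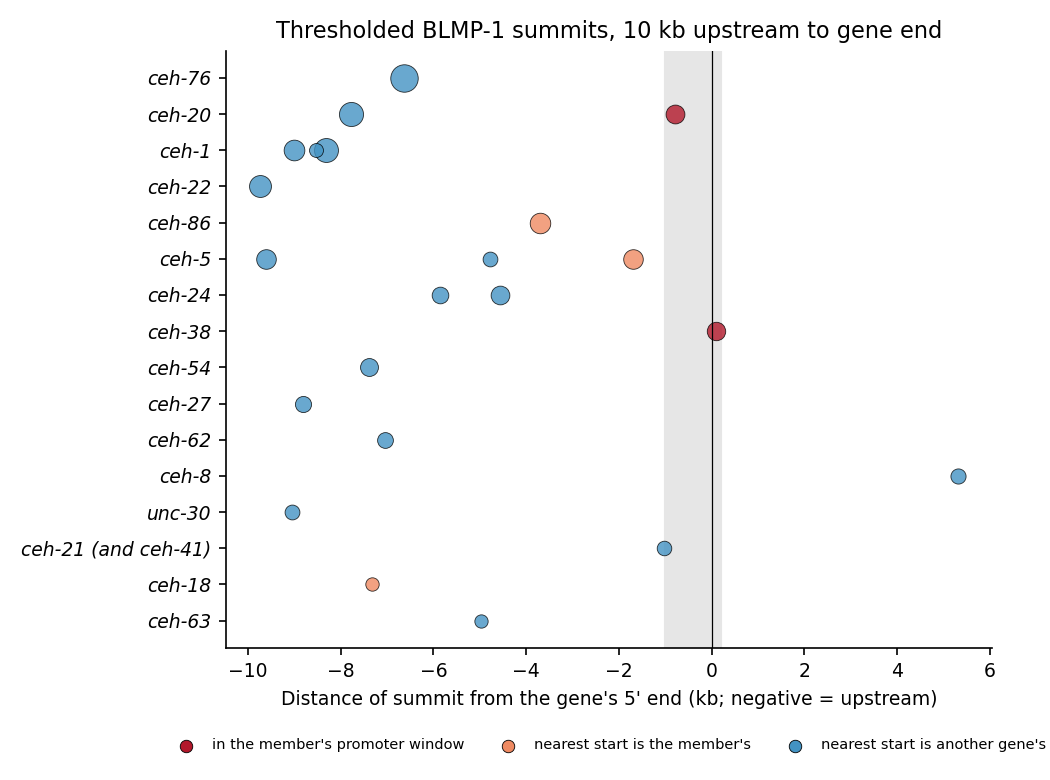
Distance of each of the 22 summits from the gene's 5' end (horizontal axis, kb, negative upstream) for each homeobox gene with a summit (vertical axis, sorted by strongest signal), with the area of a point in proportion to its signal and the promoter window of a single start shaded. Close to the gene stand the ceh-20 and ceh-38 summits in the window and the ceh-21 summit just outside it, and 16 of the 22 lie more than 4000 bp upstream.

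Summits nearest to a homeobox start other than those of ceh-20 and ceh-38 were at ceh-86, ceh-5 and ceh-18. At ceh-86 the summit lay 3702 bp upstream (signal 64.8, rank 787), with 31.04 in replicate 2 and 27.97 in replicate 3, and the next thresholded summit was 129339 bp away. At ceh-5, a relative of mammalian Vax genes on chromosome I, the summit 1706 bp upstream (9725463, signal 58.9, rank 939) lay in an exon outside coding sequence where eat-16, a regulator of G protein signalling, and ocrl-1, an inositol phosphatase gene, overlap. It had 26.7 in replicate 2 and 31.6 in replicate 3. The other 2 summits of the ceh-5 window belonged by distance to these neighbours, 42 bp from a start of ocrl-1 (signal 59.1) and 320 bp from a start of eat-16 (33.6).

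At ceh-18, a POU-class gene that acts in the gonadal sheath and in oocyte meiotic arrest, the summit lay 7321 bp upstream on chromosome X (3865118, signal 27.6, rank 2969). It was near the bottom of the list and had 11.0 in replicate 2 and 17.6 in replicate 3. With the strongest 3060 peaks of replicate 2 alone ceh-18 had no summit in the wide window. A second summit, 2701 bp from it (3867819, signal 28.6, rank 2838), lay in the same space of 11606 bp between ceh-18 and lim-4. That summit was 10022 bp upstream of ceh-18, just beyond the window, and 1585 bp past the end of lim-4, the LIM-class gene of the AWB olfactory neurons. Its nearest start was one of lim-4, 5576 bp away. It was weaker in the replicates, at 6.76 and 9.97, and was singled out after its values were seen.

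Sequence at the summits is shown for the strongest summit of the set, for the 3 summits between genes that were nearest to a homeobox start, and for 4 others that carry a searched word. Each run is 101 bases of the plus strand of ce11 with the summit in the middle, read from the RefSeq copy of that assembly, and capitals mark AGTGAAAG, AGCGAAAG, AAGTGAAA or AGACGCAG on either strand, so that CTTTCGCT, TTTCACTT and CTGCGTCT are their forms on the other strand.
ceh-76, chrV:8001257-8001357: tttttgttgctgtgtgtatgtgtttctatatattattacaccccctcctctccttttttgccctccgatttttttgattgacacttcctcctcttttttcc
ceh-20, chrIII:6979033-6979133: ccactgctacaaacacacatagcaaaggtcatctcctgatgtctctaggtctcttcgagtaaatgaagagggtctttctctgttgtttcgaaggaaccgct
ceh-86, chrII:2435724-2435824: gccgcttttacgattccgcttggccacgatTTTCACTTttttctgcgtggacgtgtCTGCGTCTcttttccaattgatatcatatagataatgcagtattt
ceh-18, chrX:3865068-3865168: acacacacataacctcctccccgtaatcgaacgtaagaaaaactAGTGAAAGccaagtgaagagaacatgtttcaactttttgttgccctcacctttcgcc
ceh-1, chrX:4663115-4663215: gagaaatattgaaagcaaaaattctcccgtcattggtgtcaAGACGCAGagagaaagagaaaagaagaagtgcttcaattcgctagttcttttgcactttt
ceh-24, chrV:13807324-13807424: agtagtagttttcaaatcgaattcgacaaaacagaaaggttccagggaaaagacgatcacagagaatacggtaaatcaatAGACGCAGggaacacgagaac
ceh-27, chrV:11673875-11673975: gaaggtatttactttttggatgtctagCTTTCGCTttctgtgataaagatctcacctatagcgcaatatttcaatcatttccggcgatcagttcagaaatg
ceh-22, chrV:10662136-10662236: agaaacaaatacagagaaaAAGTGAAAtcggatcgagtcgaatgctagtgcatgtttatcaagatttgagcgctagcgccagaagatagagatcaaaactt

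AGTGAAAG and AGCGAAAG are forms of the core that mammalian PRDM1 is known to bind. One or the other stood within 50 bp of 2 of the 22 summits (9.09%), those of ceh-18 and ceh-27, against 7.09% of all 3031 nuclear summits. AGACGCAG, the word that ranked first in an earlier scan of these summits and was chosen here for that reason, was present at 5 of the 22 (22.7%), against 8.05% of all summits. Those 5 lay in the windows of ceh-1, ceh-5, ceh-21 with ceh-41, ceh-24 and ceh-86. AAGTGAAA, which overlaps AGTGAAAG by 7 bases, was present at 3 (13.6% against 8.71%), and GAGAGAGA at 1, in the window of unc-30 (4.55% against 9.11%). The summits of ceh-86 and ceh-5 that were nearest to the gene both carried AGACGCAG and AAGTGAAA together. Over all 3031 nuclear summits 12 did (0.396%), these 2 among them. The pair was not among the planned counts, so its share is no evidence of enrichment. These shares rest on few summits and are descriptions of letters, and the 101 bases at the ceh-20 promoter summit held none of the words. The median share of G and C in these runs was 42.6% against 43.6% over all nuclear summits.

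In the promoter window of the gene's 5' end, AGTGAAAG or AGCGAAAG on either strand was found for 4 of the 73 genes (5.48%), against 7.85% of all genes. They were ceh-43, a Distal-less type gene, ceh-84, ceh-86 and unc-42, which acts in command interneurons. None of the 4 had a promoter summit, and 2 of the 69 genes without the word had one (2.90%). Over all genes 15.6% of promoters with the word and 8.27% of those without it had one. With only 4 genes, a count of 0 does not differ in a readable way from that share.

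The remaining summits of the wide window lay at neighbouring genes or far upstream. The strongest of the set, with a signal of 115.9 and rank 230, was 6637 bp upstream of ceh-76 on chromosome V (8001307) and 156 bp from the start of Y97E10AR.1. It stood at rank 121 in replicate 2 and 287 in replicate 3. At ceh-22, the NK-class regulator of pharyngeal muscle, the summit 9732 bp upstream (signal 73.8) was 719 bp from sqv-4, a UDP-glucose dehydrogenase gene. At ceh-24, an NK-class gene of vulval muscle and the pharyngeal m8 cell, summits lay 4575 bp (53.9) and 5857 bp (42.6) upstream, and swan-1 had the nearest start to both, at 1419 bp and 137 bp.

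At ceh-1, an NK-type gene on chromosome X, 3 summits lay from 8325 to 9008 bp upstream. Their signals were 88.05, 29.97 and 65.8 in order of distance, and the nearest start to all of them was that of the nuclear receptor gene nhr-45, from 2164 to 2847 bp away. The first and second were 206 bp apart. In replicate 3 each had a peak within 100 bp, with signals of 57.0, 21.4 and 48.5. In replicate 2 only the farthest had one, with 15.6, and the nearest replicate 2 summit to the other 2 lay 101 and 105 bp away, between them.

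Weaker summits completed the wide window. That of ceh-54, a paired-like gene, had a signal of 49.2 and was 3113 bp from bca-1, a carbonic anhydrase gene. Those of ceh-27 (40.1), ceh-62 (38.3) and ceh-63 (27.2) had lgc-44, a ligand-gated channel gene, npp-19, a nucleoporin gene, and tag-52 as their nearest starts. In ceh-8, a relative of mammalian Rax, the summit (35.4) lay in an exon outside coding sequence 5301 bp from the 5' end, and 684 bp from the collagen gene col-63. The summit shared by ceh-21 and ceh-41 (32.6) was 80 bp from the start of T26C11.9, 1033 bp upstream of ceh-21 and therefore 33 bp outside its promoter window. These 2 genes and ceh-39 are ONECUT-family neighbours on chromosome X, and ceh-39, which acts as an X-linked signal in sex determination, had no summit in its own window, although the shared summit lay just past its end.

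Of the 12 genes listed singly, unc-30 alone had a summit in the wide window. unc-30 is the Pitx-type gene of GABAergic motor neuron identity, and its summit lay 9049 bp upstream (chromosome IV, 13109928, signal 33.9), 149 bp from the start of best-1, a bestrophin gene, and in an intron of B0564.2. For the other 11 genes the nearest summit was given by distance alone. It was 5.73 kb from the 5' end of lim-4, 7.77 kb from unc-4, a regulator of motor neuron synaptic input, and 15.1 kb from vab-7, an even-skipped type gene. For lim-7, an Islet relative of the gonadal sheath, it was 17.4 kb away, and for lim-6, an Lmx-type neuronal gene, 18.3 kb. The touch neuron gene mec-3 stood 22.0 kb from the nearest summit and unc-42 20.6 kb. The distances were over 40 kb for ttx-3, the LIM-class gene of the AIY interneuron (41.4 kb), pal-1, the caudal-type gene of posterior fate (41.5 kb), unc-86, the POU-class neuronal gene (47.6 kb), and ttx-1, the Otx-type gene of the AFD thermosensory neuron (58.7 kb). Of these 11 genes, lim-4 (6.91) and unc-42 (4.73) had a relaxed promoter peak in the pooled list.

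Among the 73 genes, none of the LIM class or the sine oculis class had a summit in the wide window. The sine oculis class acts in head and pharynx development. Class counts here cover these 73 genes only, not every homeobox gene of a class. The nearest summit lay 5.73 to 41.4 kb from the 6 LIM-class genes and 12.8 to 52.99 kb from the 3 sine oculis class genes ceh-32, ceh-33 and ceh-34. Within the set the paired-like class had 3 of 12 (ceh-8, ceh-54 and unc-30), the POU class 1 of 3 and the PBC class 1 of 3. The CUT class had 3 of 6 and the NK-like class 7 of 20. Genes with no class assigned had 2 of 20 (ceh-76 and ceh-86), and the share over all genes was 27.2%. For 7 genes the nearest summit was over 100 kb away, among them ceh-81 (343.7 kb), ceh-82 (345.6 kb), ceh-83 (349.9 kb) and ceh-84 (435.0 kb), all on the left arm of chromosome II. Of the 73 genes 28.8% were on the X chromosome, against 13.7% of all genes, and 7 of the 22 summits (31.8%) were there, against 21.9% of all nuclear summits.

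Support from the replicates was like that of the whole list. Of the 22 summits, 14 (63.6%) had a peak among the 3060 strongest of each replicate within 100 bp, against 61.99% of all nuclear summits. In replicate 2 it was 16 and in replicate 3 it was 19. Counting all relaxed peaks, 20 of the 22 (90.9%) had one in both replicates, against 92.6% of all nuclear summits, and the exceptions were 2 summits of ceh-1 in replicate 2. The thresholded list was derived from these lists, so such shares were largely set in advance. Among the 20 summits found in both lists, that of ceh-63 had the weakest ranks, with rank 4742 in replicate 2 and 9346 in replicate 3, while ceh-62 stood at rank 1272 in replicate 2 and 5858 in replicate 3.

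**Figure D4:**
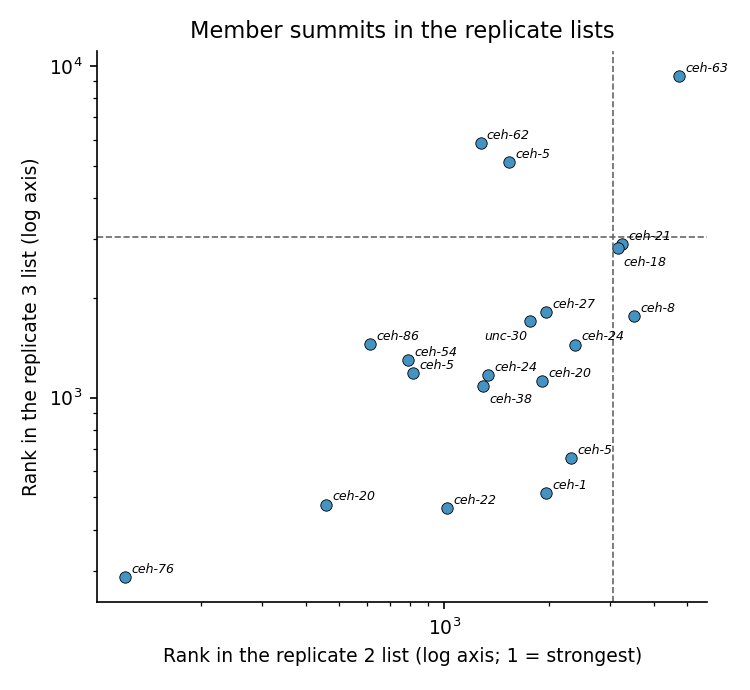
Rank of the strongest peak within 100 bp in the replicate 2 list (horizontal axis, log scale) and the replicate 3 list (vertical axis, log scale), among nuclear peaks, for the 20 summits found in both, with dashed lines at rank 3060. Of the 20, 14 lie below both lines, ceh-76 is the strongest in both lists, and the ceh-62 summit and one of ceh-5 are among the strongest in replicate 2 only.

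Other families of transcription factor genes give a scale for these shares. They were picked by name pattern after values had been seen, and the differences between families were not tested. Among 25 genes named hlh-, 2 had a promoter summit (8%), hlh-30 (signal 77.4) and hlh-11 (45.4), and among 17 genes named zip- or atf- 8 had one (47.1%). The zip- and atf- genes had longer promoter windows, with a median of 2402 bp merged over starts, against 1201 bp for the homeobox genes. The genes named nhr- stood at 13.4% of 269. Among the 6 Hox genes lin-39, the Hox gene of the midbody, had a promoter summit (signal 76.9, 40 bp from a start). Of 23 further homeobox genes 1 had one, dve-1, a homeobox gene known from the mitochondrial stress response, with signals of 218.7 and 27.1. Over all genes the promoter share was 8.85%. In the wide window 5 of the 23 further homeobox genes had a summit (21.7%), against 27.2% of all genes. They were dve-1, unc-39 (165.1), dsc-1 (51.5), unc-62 (49.1) and tab-1 (32.3).

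**Figure D5:**
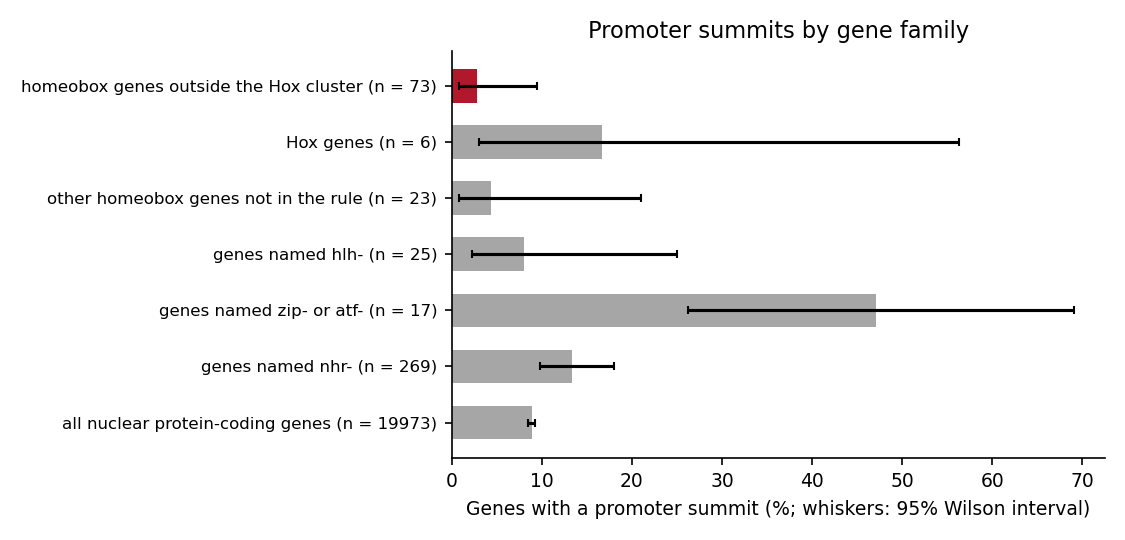
Share of genes with a promoter summit in the thresholded list (horizontal axis, percent) for the homeobox genes outside the Hox cluster and for other gene groups (vertical axis), with 95% Wilson intervals as whiskers. The homeobox genes stand at 2.74% with an interval of 0.755 to 9.45, and all nuclear protein-coding genes at 8.85%. Median merged promoter windows were 2402 bp for the genes named zip- or atf- and 1201 bp for the homeobox genes.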

How the data were processed

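Peak lists from 2 biological replicates of 1 group were used. Per the deposited file descriptions, each relaxed list, 1 per replicate and 1 pooled, was derived with a control that was not analysed here, and the IDR thresholded list was made from these 3. The signal of each peak was deposited by the authors as their caller made it, with no scale stated. The sources used here do not name the aligner, the caller or the threshold. The ce11 lists were used, since ce11 is the assembly of the WBcel235 annotation (Ensembl release 115), and no nuclear peak passed a chromosome end. Lists on ce10 were not used here. Mitochondrial peaks were left out, and 3 nuclear summits beyond their peak's end were moved to the peak's last base. Coordinates are 1-based.

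Summits were counted in windows of every nuclear protein-coding gene, and shares carry 95% Wilson intervals, which cover counting only. No test was run. Annotated starts are approximate in worms because many transcripts are trans-spliced. The genes named were those with a promoter summit, up to 25 with the strongest summit in the wide window (which took all 17 that had one), the strongest below threshold, the 12 listed singly, other homeobox genes with a promoter summit, and neighbours sharing a summit; others were named after their values were seen. Classes were assigned by hand to 53 of the 73 genes, and 1 gene of the class list, ceh-44, was not found as a protein-coding gene of that name. The members and lists were chosen with earlier results of these data known. Promoter reach, start choice, window reach, list length, single replicates, overlap rules and motif window were varied. The counting, nearest-start and motif steps were tested on simulated data and recovered every planted item. The software was matplotlib 3.10.9, pandas 2.3.3, SciPy 1.17.1 and NumPy 2.4.6 under Python 3.11.15.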

Additional observations from a re-analysis of the deposited data

How the results depend on the processing

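No paired analysis was possible because there is 1 group. The count of 2 genes with a promoter summit was 2 to 3 with either replicate alone, 2 with the stronger 50% of peaks, with 1 start per gene or by nearest start within 1000 bp, 1 with 500 bp upstream, 4 with 2000 bp, and 4 with 6120 pooled peaks. In each of these settings its share was below that of all genes. The 17 genes with a summit in the wide window were 16 to 17 with either replicate alone, 24 with 6120 pooled peaks (32.9% against 42.6% of all genes), 9 with the stronger 50% of peaks (12.3% against 15.3%), 8 with 5 kb upstream (11.0% against 19.2%), 28 with 20 kb (38.4% against 40.2%), 7 when stopping at the neighbouring gene (9.59% against 13.6%) and 5 by nearest start (6.85% against 10.5%). The genes changed with the replicate: without replicate 3, ceh-8, ceh-18, ceh-41 and ceh-63 were lost and ceh-12, ceh-33, ceh-39 and ceh-79 gained, and without replicate 2, ceh-62 and ceh-63 were lost and ceh-33 gained. Their 22 summits were 21 to 22, 33, 12, 9, 39, 8 and 5 in the same order. The density ratio of 0.749 was 0.470 with 5 kb, 0.790 with 20 kb, 0.823 with the stronger peaks, 0.490 when stopping at the neighbour, and 0.715 to 0.749 with either replicate alone. The 14 summits found in both replicates were 16 with summits within 250 bp (72.7% against 66.6% of all nuclear summits). They were 12 with a reciprocal overlap of 50% (54.55% against 47.4%). Without the cut to the strongest peaks they were 20 (90.9% against 92.6%). The 2 summits with AGTGAAAG or AGCGAAAG were 3 with 100 bp to each side. The settings that stop at the neighbour, and the density with either replicate alone, were chosen after seeing the data. Stopping at the neighbour shortens the merged windows of the homeobox genes but hardly those of all genes, so that ratio compares unlike windows. At 10 kb the merged windows of all genes already held 2964 of the 3031 nuclear summits. Merged lengths at 5 kb and 20 kb are not given here. Whether the ratios of 0.470 and 0.790 compare like windows is therefore not shown. Fewer peaks or shorter windows leave fewer summits to count by construction. With 2 of 73 genes, a change of 1 gene moves the share by much, and depth is unknown.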
